A study of Oryctolagus cuniculus with 4 samples.

Results

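The outer skin barrier of the rabbit ear scar was examined through 8 genes, chosen by name as epidermal lipid barrier and ichthyosis genes: ABCA12, NIPAL4, PNPLA1, SPINK5, ALOX12B, ALOXE3, CERS3 and TGM1. Of these 8 genes, 6 were found by symbol among the 13913 genes of the table, and all 6 passed the filter on low values that left 9348 genes for testing. CERS3 and TGM1 were not analysed here. ABCA12, NIPAL4, PNPLA1 and SPINK5 are also among the hub genes that the study drew from its bulk RNA-seq of other samples.

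Granular keratinocytes, the last living layer of the epidermis, make a special class of ceramides that carry a very long fatty acid esterified to linoleate. These acylceramides are loaded into lamellar granules, secreted and partly bound to the cross-linked protein envelope of the dead cells above, and this sheet keeps water in the body. Loss of any of these genes in patients causes an ichthyosis, a scaling disorder in which the barrier is faulty.

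Single-cell RNA-seq libraries made with a droplet method for the 3' ends of transcripts were compared between 2 groups of 2 libraries each. Both groups were wild-type female rabbits of 10 to 12 weeks at purchase with hypertrophic scars (HS) raised by wounding the inner face of the ear, and the inner epidermis and dermis were taken for dissociation on day 43 after wounding. The HS group stayed untreated. The drug-loaded MNs group was treated with separating microneedles (MNs), which leave tips holding a 5-fluorouracil prodrug behind in the scar, once a week for 3 weeks from day 22. No library with drug-free MNs was analysed here, so that the effects of needle and drug cannot be told apart. Each library was 1 scar tissue, and whether tissues of a group came from different animals was not stated, so p-values measure the spread between these tissues only.

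The table gave 1 value per gene and library, and each library was rescaled to a total of 1000000. One unit of relative expression below is 1 part of that total. The depth in reads was unknown, and the small number of libraries limited the precision. Whether gene length had been corrected for was not stated, so levels were not ranked between genes. The labelled tissue was checked with keratinocyte markers: KRT10 stood between 24610 and 45330 units and KRT14 between 1666 and 3282 units. Of 10 listed markers each, 8 basal and 4 spinous ones were in the table, and 0 of them were at 0 in all libraries. That count says little, since only markers present in the table could enter it. Only 3 of 15 granular markers (CDSN, ASPRV1 and ELOVL4) were in the table, so the layer in which the barrier genes are mainly made was thinly covered.

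To see whether drug-loaded MNs changed the lipid barrier program, the 6 genes were compared between the groups. None of the 6 passed an adjusted p of 0.05 in limma (0 at an unadjusted p under 0.05), where 0.0428% of all tested genes passed the first threshold and 8.65% the second. Values of ABCA12, ALOX12B and ALOXE3 were higher on average in drug-loaded MNs, and those of NIPAL4, PNPLA1 and SPINK5 were lower. In 0 of the 6 genes were the groups free of overlap, whereas 37.8% of all tested genes had groups that did not overlap. The median log2 fold change of the 6 genes was -0.06, beside 0.12 for all tested genes.

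PNPLA1 encodes the enzyme that transfers linoleate onto the long ceramide and so completes the acylceramide. Its relative expression was 8.12 and 14.2 units in the HS libraries and 6.895 and 13.1 units in the drug-loaded MNs libraries. The lower libraries of both groups lay under the higher libraries of both, so the groups overlapped. From means of 11.2 ± 4.29 and 10.02 ± 4.415 units (SD, n = 2 each), PNPLA1 had a fold change of -0.16 on the log2 scale, with a 95% interval from -1.07 to 0.75 (limma adjusted p 0.946).

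ABCA12 is the transporter that loads glucosylated ceramides into lamellar granules, and its loss causes harlequin ichthyosis. It stood at 12.9 and 38.0 units in HS and at 20.01 and 42.99 units in drug-loaded MNs. The lower libraries of both groups again lay under the higher ones, and the highest value was 3.34 times the lowest. The log2 fold change was 0.39 (95% interval -0.85 to 1.62, limma adjusted p 0.897), from means of 25.45 ± 17.79 and 31.5 ± 16.25 units (SD, n = 2 each). The upper bound of this interval left room for a clear rise, and the lower bound for a fall.

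NIPAL4, also named ichthyin, is a membrane protein of the granular layer related to magnesium transporters, and its step in barrier lipid handling is less well defined. Values were 10.3 and 17.8 units in HS and 7.65 and 14.9 units in drug-loaded MNs. The low libraries of both groups lay under the high ones, as for PNPLA1. The means of 14.1 ± 5.27 and 11.3 ± 5.13 units (SD, n = 2 each) gave a log2 fold change of -0.315 (95% interval -1.23 to 0.60, limma adjusted p 0.888).

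The lipoxygenases ALOX12B and ALOXE3 act one after the other on the linoleate of the acylceramide, a step needed to bind the lipid to the protein envelope. Their genes are neighbours in the RefSeq annotation of the rabbit assembly mOryCun1.1, where ALOX15B lies on the other side of ALOX12B. ALOX12B stood at 0.522 and 5.53 units in HS and at 1.38 and 7.63 units in drug-loaded MNs. It had the widest spread of the 6 genes, with a highest value 14.6 times the lowest, and only 1.14% of all tested genes had a larger range on the log2 scale. The lowest value was under the 1 unit that the filter required on average. With the depth unknown, the part of low counts in this spread was not tested. From means of 3.03 ± 3.54 and 4.51 ± 4.42 units (SD, n = 2 each), the log2 fold change of 0.52 had a 95% interval from -1.30 to 2.35 (limma adjusted p 0.905), so that neither a strong rise nor a strong fall was outside it.

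ALOXE3, the second enzyme of the pair, varied less, from 6.61 and 9.56 units in HS to 5.597 and 11.8 units in drug-loaded MNs. The means of 8.08 ± 2.09 and 8.71 ± 4.41 units (SD, n = 2 each) were nearly equal, and the log2 fold change was 0.038 (95% interval -0.86 to 0.94, limma adjusted p 0.985). ALOX12B reached 0.079 of the ALOXE3 value in HS replicate 1 and 0.246 in drug-loaded MNs replicate 1. In HS replicate 2 and drug-loaded MNs replicate 2 this ratio was 0.579 and 0.645. Within each group the ratio was lower in the library with the low ALOX12B value, which is nearly given since ALOX12B is its numerator. In HS replicate 1 that numerator was only 0.522 units. The groups overlapped in this ratio.

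SPINK5 encodes LEKTI, a secreted inhibitor of the kallikrein proteases that cut the junctions between corneocytes, and its loss causes Netherton syndrome. Its values were 425 and 462 units in HS, close to each other, and 256 and 550.4 units in drug-loaded MNs. Both the lowest and the highest library were treated ones. The means of 443.5 ± 25.9 and 403 ± 208 units (SD, n = 2 each) gave a log2 fold change of -0.24 (95% interval -1.07 to 0.59, limma adjusted p 0.903).

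**Figure D1:**
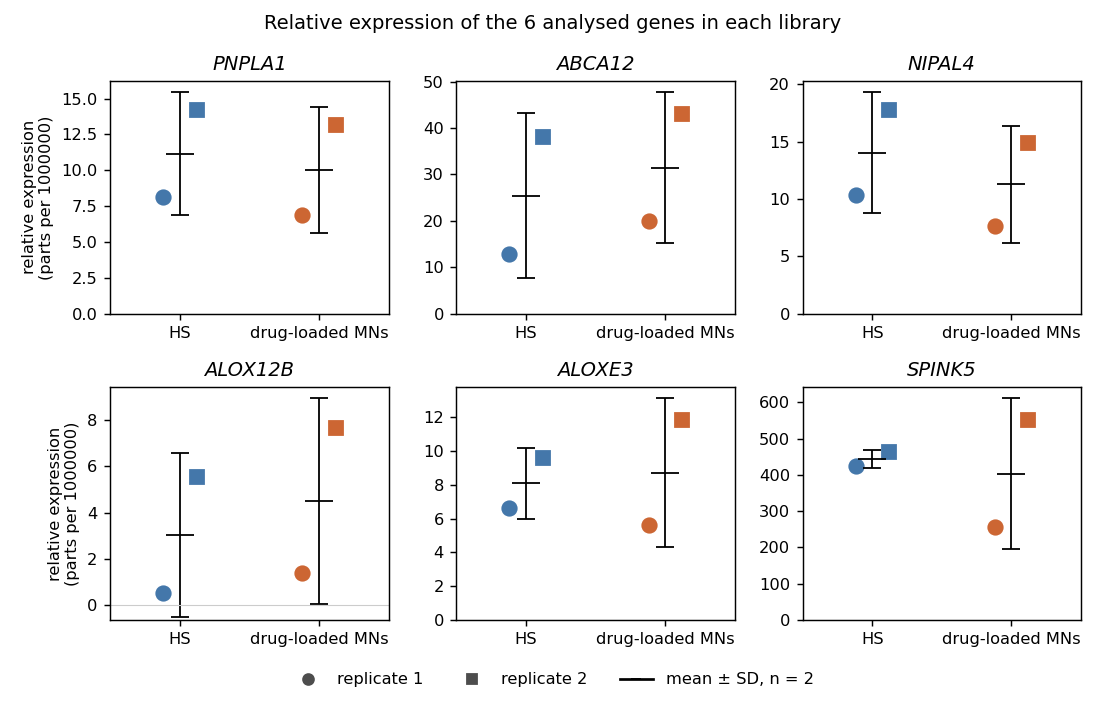
Relative expression (parts per 1000000 of the library total, vertical axes from 0 or just below it, 1 panel per gene) of the 6 analysed genes in HS and drug-loaded MNs. Circles are replicate 1, squares are replicate 2, and bars are the mean ± SD of 2 libraries; the square lies above the circle in both groups for all 6 genes, and the groups overlap in each panel.

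The direction of the mean difference was set by single libraries. With all libraries 3 of the 6 genes were higher in drug-loaded MNs. Without HS replicate 1 the count was 0 of 6, and without drug-loaded MNs replicate 2 it was also 0 of 6. Without HS replicate 2 it was 5 of 6, and without drug-loaded MNs replicate 1 it was 6 of 6. The median log2 fold change of the 6 genes was -0.44 and -0.51 in the first pair of settings and 0.24 and 0.42 in the second pair. For all tested genes the median was 0.04 and 0.18 in the first pair and 0.19 and 0.06 in the second. These shifts of the 6 genes restate the order of libraries within the groups, described below. The largest single value was a log2 fold change of 1.57 for ALOX12B without HS replicate 2. Without drug-loaded MNs replicate 1, the log2 fold change was 1.45 for ALOX12B and 0.92 for ABCA12. In each of these fits 1 group held 1 library, whose spread was assumed to be that of the other group. Only fold changes are therefore given here.

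**Figure D2:**
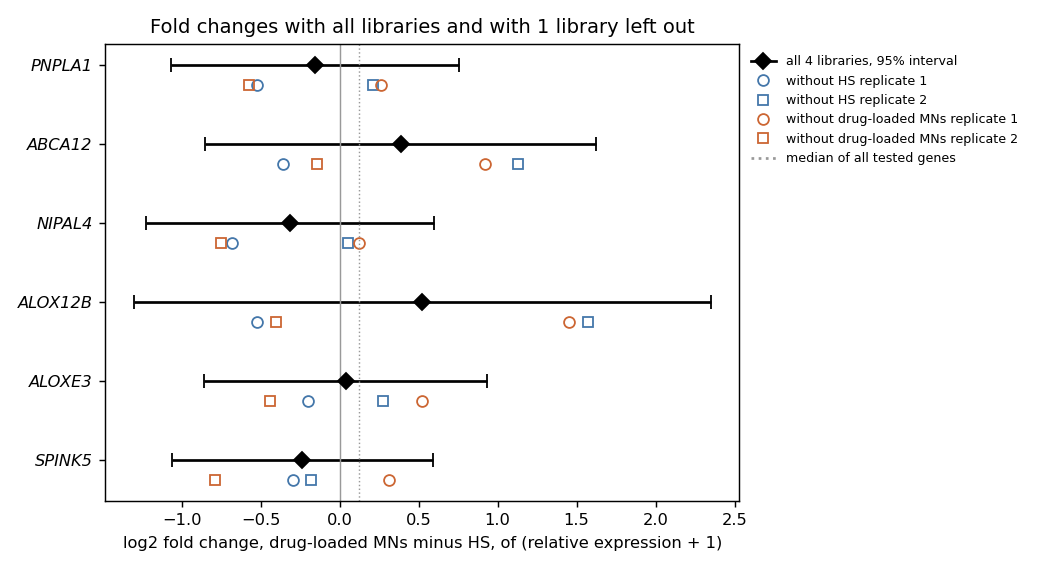
Log2 fold change (drug-loaded MNs minus HS, horizontal axis, of relative expression + 1) for each gene with all 4 libraries (black diamond, 95% interval of limma) and with each library left out (open symbols). All 6 intervals span 0, and the open symbols of every gene lie on both sides of 0; the dotted line is the median of all tested genes at 0.12.

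The clearest pattern in these genes ran within the groups and was seen only after the values were known. All 6 genes were higher in HS replicate 2 than in HS replicate 1, and all 6 were higher in drug-loaded MNs replicate 2 than in drug-loaded MNs replicate 1. Of all tested genes, 23.2% shared both of these orders. The ratio of the HS libraries ran from 1.09 for SPINK5 to 10.6 for ALOX12B, and that of the drug-loaded MNs libraries from 1.91 for PNPLA1 to 5.53 for ALOX12B. The median log2 difference between the libraries of the 6 genes came to 0.73 for HS and 1.01 for drug-loaded MNs, beside 0.12 and -0.11 for all tested genes. Whether libraries of equal number shared an animal, batch or day was not stated.

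Markers of the epidermal layers were set beside this pattern. The 8 basal markers in the table, the keratins and anchoring proteins of the dividing layer such as KRT5, KRT14 and COL17A1, summed to 8823 and 6344 units in HS and to 8503 and 4576 units in drug-loaded MNs, so their sums were low where the 6 genes were high. These sums were carried by KRT5 and KRT14. All 8 markers were lower in replicate 2 of drug-loaded MNs, but 3 of them were higher in replicate 2 of HS: COL17A1 (175.8 and 391.7 units), TP63 (152.6 and 273.9 units) and DST (469 and 564.3 units). The 4 spinous markers (KRT1, KRT10, DSG1 and DSC1), made by cells that have left the basal layer, summed to 36820 and 52320 units in HS and to 31360 and 41240 units in drug-loaded MNs, which was high where the 6 genes were high. KRT1 alone went the other way, from 2689 to 2542 units in HS and from 3973 to 1940 units in drug-loaded MNs. The 3 granular markers did not move as 1 group. ELOVL4 had the order of the 6 genes, with values given further on. CDSN, a junction protein of the cornified layer, had the reverse order, with 9.24 and 6.08 units in HS and 10.4 and 4.49 units in drug-loaded MNs. ASPRV1, a protease that processes filaggrin, stood at 1.511 and 1.996 units in HS and at 2.39 and 0.911 units in drug-loaded MNs, so it had the order of the 6 genes in HS and the reverse in drug-loaded MNs. Genes induced by tissue dissociation (FOS, JUN, EGR1 and ATF3) summed to 10880 and 17370 units in HS and to 11200 and 11850 units in drug-loaded MNs, so that the sums differed in HS and were close in drug-loaded MNs. JUN, EGR1 and ATF3 had the order of the 6 genes in both groups, whereas FOS had the reverse order in drug-loaded MNs (4803 and 3673 units). The part of the dissociation response and of the epidermal layers in the spread of the 6 genes was not tested. In values per library fewer cells of a type and less RNA per cell cannot be told apart.

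**Figure D3:**
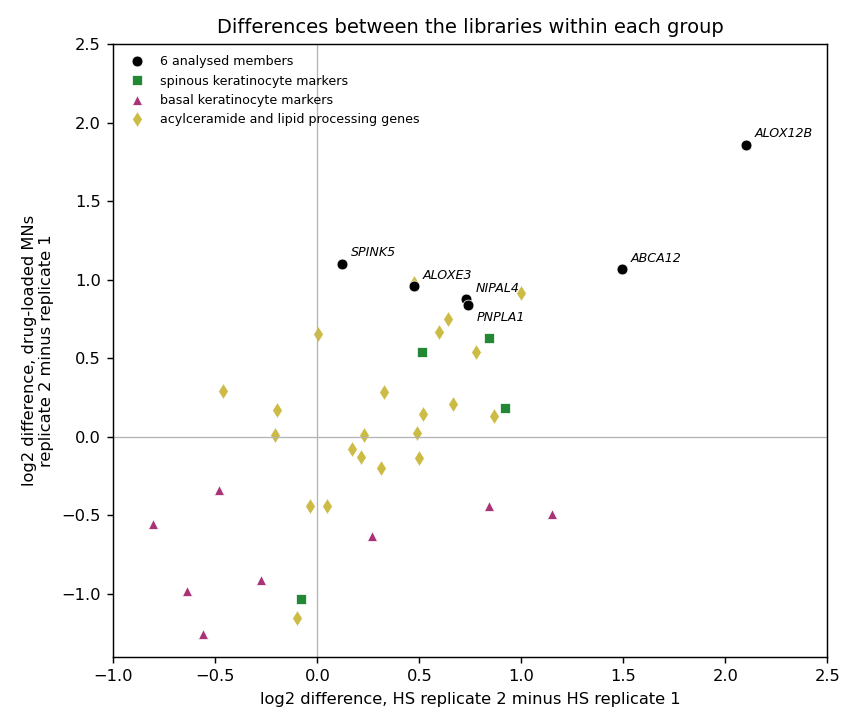
Log2 difference between the libraries of HS (horizontal axis, replicate 2 minus replicate 1) and of drug-loaded MNs (vertical axis, replicate 2 minus replicate 1), 1 symbol per gene. The 6 barrier genes (black) all lie at the upper right, from 0.12 to 2.1011 on the horizontal and from 0.84 to 1.86 on the vertical axis, while the 8 basal markers (triangles) all lie below 0 on the vertical axis.

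The 6 genes were next expressed relative to these markers, as the log2 value of a gene minus the mean log2 value of the marker list in the same library. Relative to the spinous markers, 3 genes were higher and 3 lower in drug-loaded MNs, with a median difference of 0.039 and with overlap in all 6. The spread between the HS libraries became smaller (median log2 difference 0.18 in place of 0.73), whereas that between the drug-loaded MNs libraries remained at 0.93. SPINK5 and ALOXE3 then had the lower value in HS replicate 2, with log2 differences of -0.43 and -0.08. Relative to the basal markers the spread grew to a median of 0.80 in HS and 1.71 in drug-loaded MNs. No test was made of these values, since the smallest two-sided p that an exact permutation can reach with 2 libraries per group is 0.333.

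Fibroblast and macrophage markers, unlike the 6 genes, were separated by group. The 6 fibroblast markers summed to between 22530 and 23000 units in HS and to between 44680 and 48620 units in drug-loaded MNs. The 8 macrophage markers summed to between 91.82 and 107.2 units in HS and to between 222.6 and 226.0 units in drug-loaded MNs. Mitochondrially encoded genes held 2.75% to 2.80% of the total in HS and 4.37% to 4.58% in drug-loaded MNs. Sebaceous gland and hair follicle markers, which stand for other epithelia of the ear that also handle lipid or make keratin, summed to 97.48 to 165.9 and to 85.93 to 224.5 units, with both highest sums in drug-loaded MNs replicate 1. Endothelial markers, from outside the epidermis, had the order of the barrier genes in both groups for 6 of 7 tested. Their sums were 206.5 and 212.8 units in HS and 161.4 and 215.9 units in drug-loaded MNs. VWF was the exception, with the reverse order in HS (149.2 and 127.7 units). The part of endothelial cells in the spread of the 6 genes was not tested. Melanocyte sums were 361.8 and 162.5 units in HS and 340.1 and 173.7 units in drug-loaded MNs, the reverse of the order seen in the barrier genes. Chondrocyte sums had the same reverse order, with 1013 and 155.5 units in HS and 659 and 498.4 units in drug-loaded MNs. Among these markers COL9A2 was higher in replicate 2 of drug-loaded MNs (10.25 and 32.04 units). Cartilage thus differed strongly between the HS libraries, and its part in the spread of the 6 genes was not tested.

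Beyond the 6 genes, 6 lists of related genes were counted, with 90 distinct genes tested. Of these 90 genes, 31 were higher and 59 were lower in drug-loaded MNs on average, and 0 passed an adjusted p of 0.05 in limma, with 12 at an unadjusted p under 0.05, beside 8.65% of all tested genes. The order of libraries seen in all 6 barrier genes was shared by 41 of the 90 genes, beside 23.2% of all tested genes.

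Among 22 tested genes that make, move or break down barrier ceramides and fatty acids, 7 were higher and 15 lower, with a median log2 fold change of -0.05. In the steps that feed PNPLA1, ELOVL4, which builds very long fatty acids, stood at 130.1 and 181.1 units in HS and at 94.2 and 186.2 units in drug-loaded MNs. SPTLC3, a subunit of the enzyme that starts ceramide synthesis, stood at 83.5 and 130.8 units in HS and at 77.2 and 130.2 units in drug-loaded MNs. Both genes, singled out after their values were seen, followed the order of the 6 barrier genes. For 5 of these 22 genes the groups were apart, each time with higher values in drug-loaded MNs, which was a smaller share than the 37.8% of all tested genes. They included genes of lysosomal sphingolipid breakdown. PSAP, the precursor of the saposins, went from 31.5 and 58.2 units to 84.6 and 92.7 units (log2 fold change 1.03, limma adjusted p 0.404). For ASAH1, the acid ceramidase, the log2 fold change was 0.40 (limma adjusted p 0.735), and for SPTLC2, another subunit of the first enzyme, 0.31 (limma adjusted p 0.814). PSAP is used by many cell types, macrophages among them, and the part of the macrophage sums given above in its values was not tested.

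Of 26 other tested genes in which mutations cause ichthyosis or a related keratinisation disorder, 7 were higher and 19 lower, with a median of -0.09. KRT2, a keratin of the upper epidermis, stood at 23500 and 28360 units in HS and at 11960 and 22750 units in drug-loaded MNs (log2 fold change -0.65, limma adjusted p 0.739). ST14, the membrane protease matriptase, stood at 18.6 and 21.4 units in HS and at 11.6 and 13.2 units in drug-loaded MNs (log2 fold change -0.65, limma adjusted p 0.527). Both genes were named for groups that did not overlap, which held for 6 of the 26 genes, a smaller share than the 37.8% of all tested genes. ATP2C1, a Golgi calcium pump, went from 9.54 and 15.5 units to 16.5 and 16.3 units.

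The kallikreins that SPINK5 holds back were not analysed here, and 9 other genes of corneocyte shedding were tested, of which 2 were higher and 7 lower. LGMN, a lysosomal protease, stood at 123.1 and 91.6 units in HS and at 198 and 174 units in drug-loaded MNs (log2 fold change 0.80, limma adjusted p 0.396). The change was 0.71 on the log2 scale for SPINK9, another inhibitor of kallikreins (limma adjusted p 0.671), and -0.23 for SPINT1, which inhibits matriptase (limma adjusted p 0.859). LGMN, SPINK9 and SPINT1 were named for groups that did not overlap. Over the list this held for 2 genes higher and 2 lower in drug-loaded MNs of the 9, beside 37.8% of all tested genes. The part of the macrophage sums given above in the LGMN values was not tested. The corneodesmosome genes DSG1, DSC1 and CDSN, which code for the junctions that these proteases cut, had log2 fold changes from -0.11 to -0.06. Of 31 listed genes of the cornified envelope only 9 were in the table, so the envelope was thinly covered. Of these 9 tested genes, 3 were higher and 6 lower, with a median of -0.18. TGM5, an envelope transglutaminase of the same family as TGM1, stood at 14.1 and 18.4 units in HS and at 9.72 and 13.2 units in drug-loaded MNs (log2 fold change -0.47, limma adjusted p 0.745). It was the 1 gene of these 9 whose groups did not overlap, a smaller share than the 37.8% of all tested genes.

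Of 20 transcription factors of keratinocyte differentiation, 5 were higher and 15 lower, with a median of -0.19. ELF3, an epithelial ETS factor, stood at 14.65 and 14.9 units in HS and at 3.66 and 5.77 units in drug-loaded MNs. Its log2 fold change was -1.49, with an adjusted p of 0.271 in limma. HES1, a target of Notch, stood at 445 and 613.5 units in HS and at 253 and 243 units in drug-loaded MNs (log2 fold change -1.07, limma adjusted p 0.314). GRHL3, a grainyhead-like factor known for its role in barrier formation, stood at 30.3 and 31.1 units in HS and at 21.5 and 14.5 units in drug-loaded MNs (log2 fold change -0.76, limma adjusted p 0.474). For OVOL2 the change was -0.83 on the log2 scale (limma adjusted p 0.622). These 4 factors were named for groups that did not overlap. Over the list this held for 5 of 20 genes, a smaller share than the 37.8% of all tested genes, and the fifth, PRDM1, was higher in drug-loaded MNs, with 12.47 and 13.5 units in HS and 18.7 and 25.1 units in drug-loaded MNs (limma adjusted p 0.517).

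Relatives of the 6 genes were also counted. Of 20 tested family members, 11 were higher and 9 lower, with a median of 0.055. ABCA8, a relative of ABCA12, stood at 23.2 and 46.0 units in HS and at 214 and 128 units in drug-loaded MNs (log2 fold change 2.31, limma adjusted p 0.257), and for ABCA6 the change was 1.15 (limma adjusted p 0.352). The fibroblast sums given above were also higher in drug-loaded MNs, and their part in ABCA8 and ABCA6 was not tested. SPINK6, another kallikrein inhibitor, stood at 37.7 and 31.2 units in HS and at 13.2 and 6.84 units in drug-loaded MNs (log2 fold change -1.74, limma adjusted p 0.264). ALOX15B, from the same gene cluster as the lipoxygenase pair, stood at 43.2 and 91.6 units in HS and at 24.6 and 38.8 units in drug-loaded MNs (log2 fold change -1.0026, limma adjusted p 0.519). These 4 relatives were named for groups that did not overlap, which over the list held for 7 of 20 genes, close to the 37.8% of all tested genes.

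**Figure D4:**
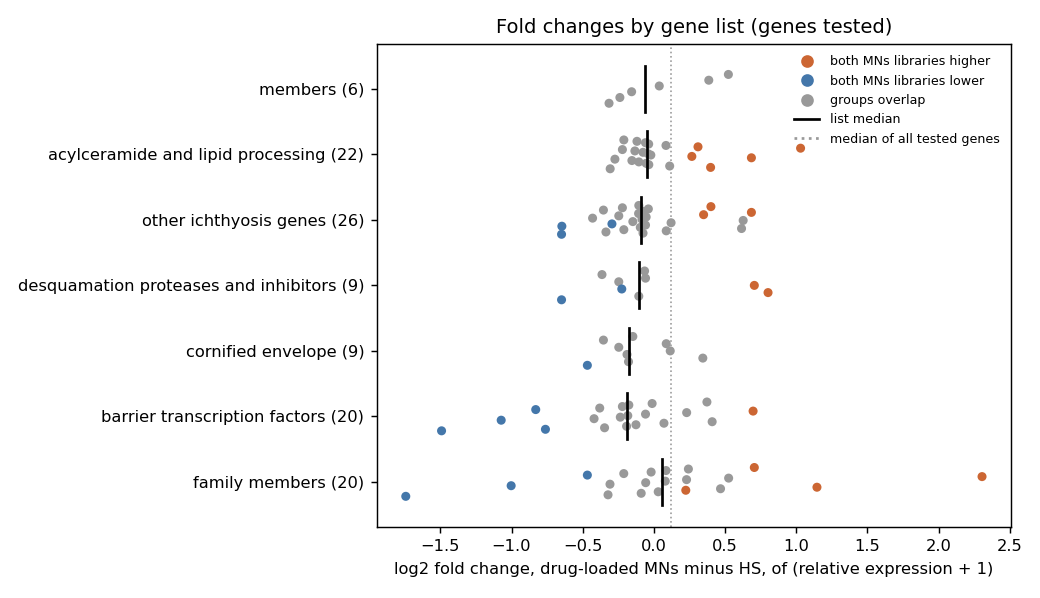
Log2 fold change (drug-loaded MNs minus HS, horizontal axis) of each tested gene in the barrier genes and the 6 related lists, with the number of tested genes in brackets. Black bars are list medians, from -0.19 to 0.055, colours mark genes whose groups do not overlap, and all 6 barrier genes are grey.

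The genes whose profile over the 4 libraries was most like the mean profile of the 6 barrier genes were taken by the Euclidean distance between centred log2 values, among 5517 genes with a symbol and a mean of at least 10 units. Among the nearest were KCNMB4 (distance 0.17), LIPM (0.22), ANKRD35 (0.25) and TMEM100 (0.28). KCNMB4 stood at 14.4 and 29.0 units in HS and at 12.45 and 27.7 units in drug-loaded MNs. LIPM, an acid lipase of the epidermis that was also on the list of lipid processing genes, stood at 31.8 and 64.45 units in HS and at 30.05 and 57.6 units in drug-loaded MNs. With 4 libraries a close profile is a description only.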

How the data were processed

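Single-cell libraries of 2 HS and 2 drug-loaded MNs scar tissues were analysed. According to the deposited labels, reads were processed with Cell Ranger 2.1.1, and the processing notes name the build mm10 (mouse), although gene identifiers were those of rabbit; the rabbit build was not given in the sources used here. The authors then filtered cells and used Seurat, and they mention a correction between samples. The deposited signal was 1 value of relative expression per gene and library with a total of 10000, and how cells or doublets were handled to reach it was not stated. If the correction had been applied, differences between libraries were altered by it. Whole reads could not be recovered (18.6% to 21.7% of low values within 0.1 of a whole step), so no count test was run.

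Each library was rescaled to 1000000. The filter required an average of 1 unit or more over the libraries, and log2(value + 1) was fitted with limma 3.58.1 (lmFit, eBayes with trend) in R 4.3.3, two-sided, with Benjamini-Hochberg adjustment over 9348 genes and a threshold of 0.05. The fit was tested on simulated data. Fold changes on this scale understate the change of low genes such as ALOX12B. The barrier genes, lists and tests were chosen with earlier results of these data known. Named from each list were genes past the threshold and up to 4 of the largest fold changes without overlap of the groups. Some genes that this rule names are not reported here. All 8 gene symbols were in the RefSeq table of mOryCun1.1, which was used for neighbours only. Alternatives were other scalings, pseudocounts, filters and variance priors, the replicate number as a block, and leaving out each library.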

Additional observations from a re-analysis of the deposited data

How the results depend on the processing

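No alternative took any of the 6 genes past an adjusted p of 0.05. The count of all genes past the threshold, 4 in the main setting, fell to 0 with quantile normalization, median ratio scaling, no filter, a pseudocount of 5 or a total without abundant genes, and to 1 with eBayes without trend. With the replicate number as a block (replicate block) it was 241, with 0 of the 6 genes among them. That fit left 1 residual degree of freedom per gene, so this count rests mostly on the variance shared across genes. The sources used here did not state whether libraries of equal number shared a batch or day; their deviations correlated at 0.22 across genes. With 1 library left out it ran from 0 to 75 (for HS, 0 without replicate 1 and 3 without replicate 2; for drug-loaded MNs, 48 and 75); the lone library of a group was assumed to vary like the other group. The cause was not tested.

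With 1 library left out, log2 fold changes ran from -0.36 to 1.13 for ABCA12, -0.75 to 0.12 for NIPAL4, -0.58 to 0.26 for PNPLA1, -0.79 to 0.31 for SPINK5, -0.53 to 1.57 for ALOX12B and -0.44 to 0.52 for ALOXE3. ALOXE3 also changed sign under median ratio scaling (-0.087) and quantile normalization (-0.17), where the median of all genes moved from 0.12 to -0.01 and -0.02. Of genes with an unadjusted p under 0.05, the percentage that was higher then went from 83.9% to 64.1% and 58.9%. A minimum mean of 5 left ALOX12B untested. The median of the 6 genes relative to basal and granular markers was 0.072 and 0.082. Count tests were not run, as no counts could be recovered. Without a known depth, its limits were not assessed.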
